A study of Mus musculus with 6 samples.

Results

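Transcripts of 10 Sox genes (Sox4, Sox5, Sox6, Sox9, Sox10, Sox11, Sox12, Sox13, Sox17 and Sox18) were measured in mammary tissue of tumor-prone mice. They were picked by symbol from the 55385 genes in each expression table, with earlier results of the DMHCA contrast in view. All 10 passed the filter on low counts, as did 19427 genes in all, so no member was lost. The choice turned on the response of Sox13 to DMHCA. Differences between the groups are therefore given below as a description of these samples. Counts of calls among the members are printed beside the share over all genes and support nothing about them.

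All mice were NeuT/ATTAC females. The MMTV promoter drives a constitutively active rat ErbB2 in mammary epithelium, and the FABP4 promoter, active in fat cells, drives an FKBPv-caspase-8 fusion. Injection of AP20187 at 0.4 mg/kg from 6 weeks of age dimerizes the fusion and partly ablates mammary fat, which fibrotic tissue replaces. By the study's methods both groups received it, although the label of the controls reads "AP20187 Vehicle". DMHCA, a sterol agonist of the liver X receptors (LXR), was given to the treated group from 8 weeks of age at 0.05% of the diet, or about 100 mg/kg, while control mice ate no DMHCA. The labels name the tissue "Mammary gland fibrosis" and the study's methods describe tumors. Epithelial genes were abundant: the keratin Krt8 had a mean of 850 TPM, a level scaled for transcript length and library size, and the adhesion molecule Epcam of 1291 TPM.

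There were 3 control and 3 DMHCA libraries, with 46358654 to 63420620 assigned fragments each. DMHCA libraries 1 and 3 were nearly identical, with a biological coefficient of variation of 0.0326, against 0.374 to 0.572 for the other 5 pairs within a group. Their counts were summed and used as 1 sample, which leaves 3 control and 2 DMHCA samples. Some libraries stood apart. Control 1 held salivary gland transcripts at a summed 9949 TPM, against 943 to 3303 in the other samples. Control 3 held B cell transcripts at 335 TPM, against 1.34 to 40.9, and adipocyte transcripts at 1229 TPM, against 71.3 to 299. Adipocyte transcripts also differed between the groups, at 299, 134 and 1229 TPM in controls and 71.3 and 77.9 TPM with DMHCA. All 7 adipocyte genes had both DMHCA samples below the controls, as did 12.2% of all tested genes. Their median log2 fold change was -4.87, and -3.5 without control 3. The part of these tissues in the values of the Sox genes was not tested, and the difference of each Sox member is given with its range when 1 library is left out. No fit left out DMHCA libraries 1 and 3 together, so these ranges do not show the dependence on that sample. In bulk tissue, fewer cells of a type and less RNA per cell cannot be told apart.

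**Figure D1:**
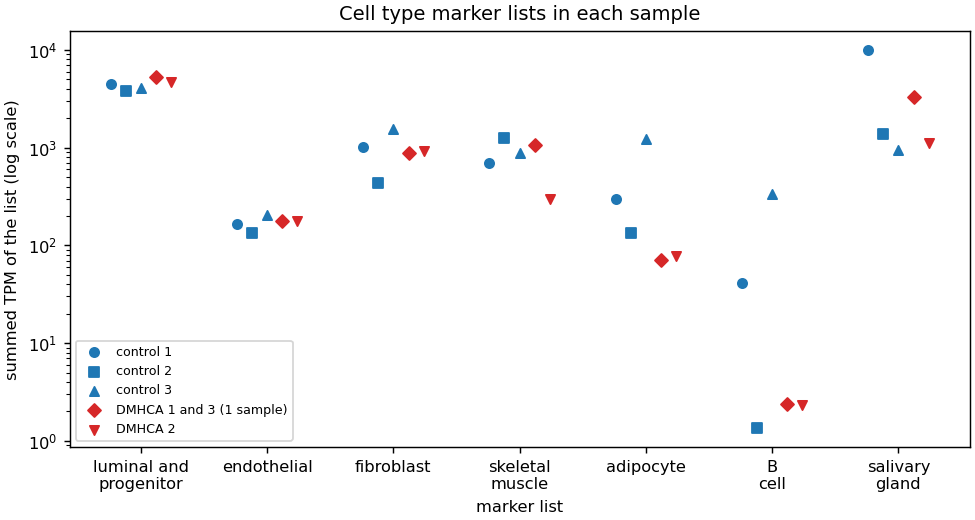
Summed TPM (log scale) of 7 cell type marker lists in each of the 5 samples, blue for control and red for DMHCA. Control 1 is highest for salivary gland genes at 9949 TPM, and control 3 is highest for adipocyte genes at 1229 TPM and B cell genes at 335 TPM. For adipocyte genes both DMHCA samples, at 71.3 and 77.9 TPM, lie below all controls. Luminal genes lie between 3796 and 5318 TPM.

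Sox proteins are transcription factors that share an HMG box, a DNA-binding domain that enters the minor groove and bends the helix. They fall into groups by the likeness of that box. SoxC proteins (Sox4, Sox11, Sox12) carry an activation domain and act in progenitor cells. SoxD proteins (Sox5, Sox6, Sox13) lack a known activation domain, pair through a coiled coil and tend to modify the action of other factors. SoxE proteins (Sox9, Sox10) drive cartilage and neural crest fates, and both mark progenitor states in mammary epithelium. SoxF proteins (Sox17, Sox18) act in blood and lymph vessels.

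The coding sequence of the box is shown because it groups the members and shows how far their transcripts differ. The lines below give 60 coding bases from the start of a conserved stretch of the box, 5′ to 3′ on the coding strand, taken from GENCODE M21 transcripts (GRCm38). Capitals mark the bases that differ from Sox13.

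Sox13: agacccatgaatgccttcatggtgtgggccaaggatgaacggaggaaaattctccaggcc
Sox5: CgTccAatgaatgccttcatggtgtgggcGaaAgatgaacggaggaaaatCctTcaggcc
Sox6: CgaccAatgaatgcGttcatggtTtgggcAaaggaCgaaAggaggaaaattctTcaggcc
Sox11: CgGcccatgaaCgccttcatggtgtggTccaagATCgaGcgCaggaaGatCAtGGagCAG
Sox9: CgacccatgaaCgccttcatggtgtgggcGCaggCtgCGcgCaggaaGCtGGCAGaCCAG
Sox10: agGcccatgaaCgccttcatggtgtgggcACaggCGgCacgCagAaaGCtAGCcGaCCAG
Sox18: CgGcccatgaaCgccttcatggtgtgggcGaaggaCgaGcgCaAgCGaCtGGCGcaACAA
Sox12: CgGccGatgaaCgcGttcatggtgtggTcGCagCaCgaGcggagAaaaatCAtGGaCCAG
Sox17: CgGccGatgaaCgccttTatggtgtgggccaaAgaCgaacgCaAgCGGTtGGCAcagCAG
Sox4: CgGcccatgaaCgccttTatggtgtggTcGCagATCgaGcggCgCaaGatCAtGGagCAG

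The Sox13 stretch lies in exon 11 of 13 at chr1:133385506-133385565 on the minus strand. Its SoxD paralogs stood closest, with 7 differences in Sox5 (exon 13 of 15, chr6:143841214-143841273, minus strand) and 8 in Sox6 (exon 15 of 17, chr7:115489703-115489762, minus strand). The other 7 members differed from Sox13 at 17 to 21 of the 60 bases, Sox11 the least and Sox4 the most. Over 237 bases of the box, the 8 pairs of members within a Sox group were 81.9% to 89.0% identical and the 37 pairs between groups were 53.6% to 75.9% identical. For 8 of the 10 genes the estimated count was whole, to within 0.005, in each of the 6 libraries, the form a count takes when no fragment is divided between genes. The exceptions were Sox5 and Sox9.

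Sox10, Sox4 and Sox9 made up most of the Sox transcripts in this tissue. Mean levels over the 5 samples were 272 TPM for Sox10, 115 for Sox4, 33.1 for Sox9, 22.4 for Sox13, 9.12 for Sox18, 7.42 for Sox5, 3.87 for Sox12, 2.81 for Sox6, 1.93 for Sox17 and 0.094 for Sox11. Neighbours in this order overlapped in range, other than Sox4 with Sox9 and Sox17 with Sox11. Within each sample, however, Sox10 was above Sox4, Sox13 above Sox18 and Sox5 above Sox12. The other overlapping neighbours changed order between samples. The level of Sox10 was above that of 97.5% of tested genes, and Sox13 was above 71.3%. Sox11 was near the bottom, above 2.05%.

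**Figure D2:**
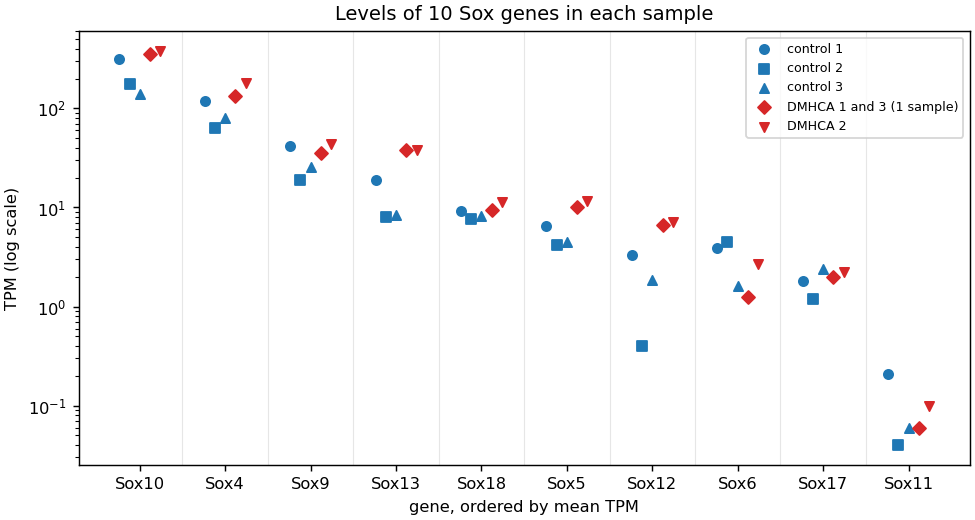
TPM (log scale) of the 10 Sox genes in each of the 5 samples, ordered by mean TPM, with blue points for control and red for DMHCA. Sox10 lies between 140 and 380 TPM, Sox11 at 0.21 TPM or less, and for Sox13 the red points at 38.2 TPM stand above the highest blue point at 18.9 TPM.

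Together the 10 genes reached 516, 286 and 273 TPM in controls 1 to 3, and 586 and 677 TPM in the DMHCA samples. They made up 93.6% to 97.8% of the TPM of all 20 Sox genes considered. Sox10 was 51.3% to 62.1% of the sum of the members, and Sox10, Sox4 and Sox9 jointly were 88.4% to 91.5%.

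The means of Sox13, Sox12, Sox4, Sox5, Sox10, Sox9 and Sox18 were higher with DMHCA, and those of Sox6, Sox11 and Sox17 were lower. In 5 members (Sox4, Sox5, Sox10, Sox12 and Sox13) both DMHCA samples were above all 3 controls, and in no member were both below. Among all tested genes, 13.8% had both DMHCA samples above and 12.2% had both below. The median log2 fold change was 0.47 over the members and -0.03 over all tested genes. Since the contrast served to choose these genes, nothing is read from these counts or from those that follow. By edgeR's quasi-likelihood test with Benjamini-Hochberg adjustment, 0 of the 10 were called, as were 0% of all tested genes. At an unadjusted p under 0.05 the count was 2 of the 10, and 7.61% of all tested genes. DESeq2 called 0 of the 10 on the 5 samples, where it called 1.22% of genes, and 2 on the 6 libraries taken as separate, where it called 3.98%.

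**Figure D3:**
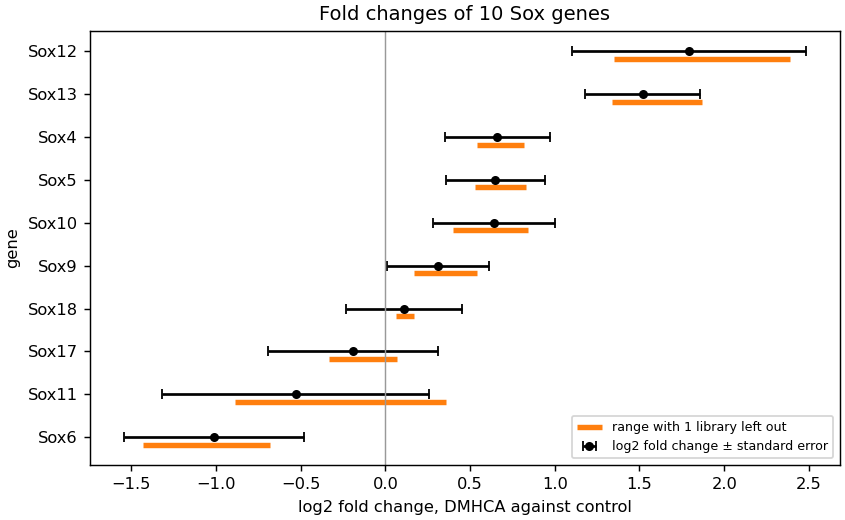
Log2 fold change of DMHCA against control for each of the 10 Sox genes, with black bars for the standard error (3 control and 2 DMHCA samples) and orange bars for the range when 1 library is left out. Sox12 at 1.79 and Sox13 at 1.52 lie farthest right, Sox6 at -1.01 farthest left, and the orange bars of Sox11 and Sox17 cross 0.

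Sox13, of the SoxD group, is known from lineage choice in gamma-delta T cells and as a modifier of Wnt signalling through T cell factors. The gene (ENSMUSG00000070643) lies at chr1:133382303-133424377 on the minus strand. Normalized counts were 1853, 1069 and 957 in controls 1 to 3, 3976 in DMHCA 1 and 3, and 3454 in DMHCA 2. Both DMHCA samples stood clear of the controls, whose highest was control 1. The means were 1293 ± 488 (SD, n = 3) and 3715 ± 369 (SD, n = 2), a 2.87-fold difference. On the log2 scale the difference was 1.52 (SE 0.34), between 1.34 and 1.87 when a library was left out, and 1.85% of tested genes had a larger one. Per length, levels were 18.9, 8.04 and 8.49 TPM in controls and 38.0, 38.2 and 38.4 TPM in DMHCA libraries 1 to 3. The independent DMHCA 2 thus lay between the near-identical libraries on this scale.

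Sox5, with a long form that acts in cartilage and neurons, was also higher, by a smaller step. It spans chr6:143828425-144781977 on the minus strand. Counts of Sox5 after normalization were 1386, 1019 and 930 in controls and 1601 and 1878 with DMHCA. The groups did not overlap, and the log2 fold change was 0.65 (SE 0.29, range 0.53 to 0.83 with a library left out). Sox6, which commonly acts with Sox5, had a lower mean with DMHCA. The gene lies at chr7:115470872-116038796 on the minus strand. Its normalized counts were 1052, 1378 and 498 in controls, and 354 and 614 in the DMHCA samples. DMHCA 2 was above control 3, so the groups overlapped, with a log2 fold change of -1.01 (SE 0.53, range -1.43 to -0.68). Without control 3 both DMHCA samples were below the controls, as in 16.6% of tested genes.

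Sox13 was a larger part of the SoxD transcripts with DMHCA. It accounted for 64.4%, 48.0% and 58.3% of SoxD TPM in controls 1 to 3, and for 76.9% and 72.6% in the DMHCA samples. The shares of the groups did not overlap. Summed SoxD levels were 29.4, 16.8 and 14.6 TPM in controls against 49.6 and 52.6 TPM with DMHCA.

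**Figure D4:**
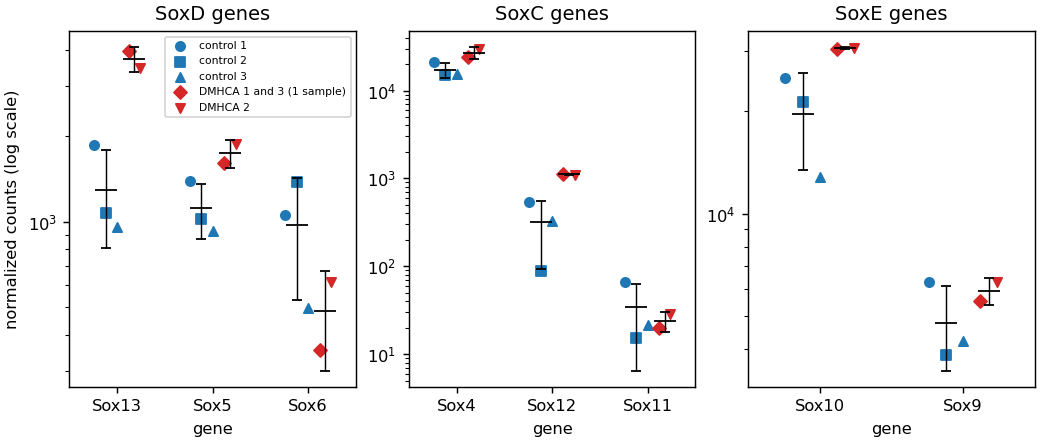
Normalized counts (log scale, which differs between panels) of SoxD, SoxC and SoxE genes in each of the 5 samples, with black bars for the group mean ± SD (3 control and 2 DMHCA samples). Sox13 shows 957 to 1853 in controls and 3454 to 3976 with DMHCA, Sox6 lies lower with DMHCA with an overlap, and both Sox12 values with DMHCA are above 1000 while the controls spread from 87.3 to 542.

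Transcript makeup was examined through the mean transcript length that RSEM assigns to a gene in each library. Of the 5 members annotated with several transcripts whose length varied, Sox5 and Sox17 had shorter mean lengths in the DMHCA samples without overlap. This was so for 14.7% of the 14255 tested genes whose length varied, and longer lengths were found for 11.1%. For Sox5, with 14 transcripts in the annotation, the length was 5709, 4888 and 5234 bases in controls and 4568, 4621 and 3786 bases in DMHCA libraries 1 to 3. The near-identical libraries 1 and 3 differed by a ratio of 1.21 here, so this estimate is coarse. Sox17 was at 1796, 1939 and 1954 bases in controls and at 1697, 1535 and 1739 bases with DMHCA. Sox13 overlapped, between 2685 and 2902 bases over the 6 libraries.

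Within SoxC, Sox4 was the abundant member and Sox12 the one with the widest difference. Sox4, an activator induced by TGF-beta in epithelial cells, lies at chr13:28948919-28953713 on the minus strand as a gene with 1 exon in 1 transcript. Its normalized counts were 20932, 15187 and 15256 in controls, and 24243 and 29803 with DMHCA. Both DMHCA samples exceeded each control, with a log2 fold change of 0.66 (SE 0.31, range 0.54 to 0.82).

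Sox12 has the weakest activation domain of the group and overlaps with its relatives in expression. It lies at chr2:152393611-152398063 on the minus strand. Sox12 counts were 542, 87.3 and 331 in controls 1 to 3, and 1125 and 1095 in the DMHCA samples. The DMHCA values were close together and above the highest control, while the controls differed among themselves 6.21-fold, against a median of 1.80-fold over tested genes. The fold difference was 3.47, or 1.79 on the log2 scale (SE 0.69), with a range of 1.35 to 2.39. As a share of SoxC TPM, Sox12 was 2.72%, 0.623% and 2.28% in controls and 4.77% and 3.82% with DMHCA.

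Sox11, an embryonic activator, was barely detected. The gene is at chr12:27334264-27342574 on the minus strand. Its normalized counts were 66.4, 15.2 and 21.6 in controls against 19.6 and 28.3 with DMHCA. The groups overlapped, and the log2 fold change of -0.53 (SE 0.79, range -0.89 to 0.36) was 0.36 without control 1.

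SoxE genes had the highest summed level of the Sox groups, at 166 to 354 TPM in controls and 386 to 425 TPM with DMHCA, most of it from Sox10. Sox10, the neural crest regulator that also marks mammary progenitor and basal-like states, lies at chr15:79154908-79165240 on the minus strand. It had 24967, 21183 and 12809 normalized counts in controls and 30450 and 30676 with DMHCA. The DMHCA samples were nearly equal and above each control, with a log2 fold change of 0.64 (SE 0.36, range 0.40 to 0.84). Control 3, the library with the lymphoid and adipocyte transcripts, was the lowest.

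Sox9, a regulator of cartilage and of luminal progenitors, lies at chr11:112782224-112787760 on the plus strand. Normalized counts of Sox9 reached 6299, 3834 and 4226 in controls and 5539 and 6293 with DMHCA. Control 1 was level with the higher DMHCA sample, so the groups overlapped, and the log2 fold change was 0.31 (SE 0.30, range 0.17 to 0.54). Without control 1 they no longer overlapped, as for 19.3% of tested genes. The ratio of Sox10 to Sox9 in TPM was 7.53, 9.45 and 5.42 in controls and 9.88 and 8.62 with DMHCA, which overlapped.

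SoxF genes differed little between groups. Sox18, which specifies lymphatic vessels from veins, lies at chr2:181669836-181671640 on the minus strand. It had 509, 565 and 487 normalized counts in controls and 534 and 587 with DMHCA, a log2 fold change of 0.11 (SE 0.34, range 0.06 to 0.17). Among the members it had the smallest spread over controls, at 1.16-fold. Sox17, of endoderm and arterial endothelium, is at chr1:4490931-4497354 on the minus strand. Sox17 gave 113, 107 and 177 normalized counts in controls and 121 and 110 with DMHCA, with a log2 fold change of -0.19 (SE 0.50, range -0.33 to 0.07) that was 0.07 without control 3.

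Endothelial genes as a group were at 165, 133 and 205 TPM in controls and 176 and 177 TPM with DMHCA. Of 15 tested, 1 was higher (Cdh5, log2 fold change 0.81, SE 0.25, unadjusted p 0.016 by edgeR) and 0 lower at an unadjusted p under 0.05, where 3.53% of all tested genes were higher and 4.08% lower. With adjustment 0 of the 15 were called. The abundant Pecam1 gave a log2 fold change of -0.09 (SE 0.31) and Plvap of 0.27 (SE 0.24). Of 7 lymphatic genes, 0 passed in either direction.

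Control 1 was the highest of the controls for 7 of the 10 members (Sox4, Sox5, Sox9, Sox10, Sox11, Sox12 and Sox13). It was highest for 24.7% of all tested genes. This is the library with salivary gland transcripts, where Amy1 reached 78839 normalized counts against 102 to 1050 in the other samples.

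Of the 10 further Sox genes, none that passed the filter separated the groups. Sry and Sox3 were listed at 0 in each library, and Sox1, Sox2 and Sox30 failed the filter with at most 11 counts in a library. Both DMHCA samples were above the controls for Sox30, at these few counts. Of the 5 that passed, 0 were called and 0 were at an unadjusted p under 0.05. Sox8, the remaining SoxE gene, had normalized counts of 1461, 2159 and 235 in controls and 347 and 1358 with DMHCA (log2 fold change -0.59, SE 0.94). Sox7, the remaining SoxF gene, lay at 104, 123 and 163 in controls and 138 and 159 with DMHCA (log2 fold change 0.19, SE 0.48).

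Sox14, Sox15 and Sox21 varied widely within each group. Sox14 gave 256, 0.949 and 171 normalized counts in controls and 663 and 1.01 with DMHCA (1.22, SE 2.06). Sox15 gave 20.2, 89.2 and 7.57 in controls and 8.54 and 327 with DMHCA (2.09, SE 1.46). Sox21 gave 51.0, 15.2 and 3.25 in controls and 2.01 and 9.11 with DMHCA (-2.12, SE 1.28). For Sox14 and Sox15 the DMHCA samples differed from each other by more than the group means did.

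Proteins that work with Sox factors include beta-catenin, the T cell factors and the CtBP corepressors, which bind the SoxD group. Of 18 tested partners, 1 was higher and 1 lower at an unadjusted p under 0.05 by edgeR, and 0 were called after adjustment. Over all tested genes 3.53% were higher and 4.08% lower at that level. DESeq2 on the 5 samples called 0 of the 18. On the 6 libraries it called 1, Tcf7, at -2.66 on the log2 scale (adjusted p 0.0492), whose highest value was in control 3, at 1722 normalized counts against 71.8 to 401 elsewhere. By edgeR, Ctbp2 was the higher one, with 5707, 3294 and 3739 normalized counts in controls and 8746 and 8015 with DMHCA (log2 fold change 0.98, SE 0.31, unadjusted p 0.0176 by edgeR). Tcf7l2 was the lower one, at 2000, 1549 and 3219 in controls and 1175 and 1251 with DMHCA (-0.89, SE 0.37, unadjusted p 0.0471 by edgeR). The most abundant partner, Ctnnb1, overlapped, with a log2 fold change of -0.35 (SE 0.48).

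Cartilage matrix genes are direct targets of Sox9 with Sox5 and Sox6. Several were strongly expressed here, with means of 317 TPM for Col9a1, 283 TPM for Comp and 121 TPM for Col9a2. Of 9 tested, 0 passed in either direction and 0 separated the groups, with a median log2 fold change of -0.07. Comp spread widely, from 1226 normalized counts in control 3 to 50249 in control 2. Col9a1 gave -0.07 (SE 0.46) and Col9a2 0.29 (SE 0.31) on the log2 scale.

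Mammary lineage genes are given because Sox9 and Sox10 mark epithelial states. Of 15 luminal and progenitor genes, 0 were higher and 3 lower at an unadjusted p under 0.05. Over all tested genes these shares were 3.53% and 4.08%. The lower genes were Aldh1a3 (log2 fold change -2.31, SE 0.56), Esr1 (-1.40, SE 0.33) and Cd14 (-1.88, SE 0.41). The abundant Krt8 had both DMHCA samples above the controls, at 0.54 (SE 0.33). Krt18 (0.40, SE 0.40) and Epcam (-0.12, SE 0.39) overlapped. The summed level of the list was 3796 to 4526 TPM in controls and 4667 to 5318 TPM with DMHCA. Of 12 basal and myoepithelial genes, 10 had a log2 fold change below 0, with a list median of -0.91 that was -0.21 without control 3. The 3 most abundant were Vim (-0.48, SE 0.35), Itga6 (0.71, SE 0.38) and Itgb4 (0.18, SE 0.60). The summed level of the basal list overlapped, at 548, 448 and 625 TPM in controls and 575 and 590 TPM with DMHCA. At an unadjusted p under 0.05, 1 of the 12 was lower, Trp63, at -2.64 (SE 1.09). Its normalized counts were 205, 69.3 and 851 in controls and 61.3 and 58.7 with DMHCA, so that control 3 was far above the rest, and the value ranged from -3.14 to -1.20 with a library left out. With adjustment edgeR called 0 of these genes, and DESeq2 on the 6 libraries called 3 luminal genes and 1 basal gene.

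Neural crest and glial genes, where Sox10 has its classical role, were mostly lower in mean. Of 14 tested, 4 had a log2 fold change above 0 and 10 below, with a median of -0.47 that was 0.11 without control 3. At an unadjusted p under 0.05, 1 was higher and 0 lower, against 3.53% and 4.08% of all tested genes. Cdh19, a cadherin of Schwann cell precursors, was the higher one, with 2172, 1526 and 2239 normalized counts in controls and 3525 and 4631 with DMHCA (1.04, SE 0.28, unadjusted p 0.00832 by edgeR). Erbb3, also an epithelial receptor, gave 0.44 (SE 0.42) and S100b -0.89 (SE 0.97). Adjusted over all genes, 0 of the 14 were called.

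Genes of gamma-delta T cells, a lineage in which Sox13 is a known regulator, had no member that was higher by the test. Of 8 tested, 0 were higher and 3 lower at an unadjusted p under 0.05 (Blk, Ccr6 and Il1r1), and 0 were called. Over all tested genes 3.53% were higher and 4.08% lower at that level. Blk and Ccr6 were highest in control 3, at 656 and 278 normalized counts. That library was also richest in T cell transcripts, at a summed 271 TPM against 4.75 to 28.7 in the other samples. It was richest in B cell transcripts too, at 335 TPM against 1.34 to 40.9. Which cells the Blk and Ccr6 transcripts came from was not tested. The median log2 fold change of the gamma-delta list was -1.66, and -0.45 without control 3 and -0.69 without control 1. It was also nearer 0 under the stricter filter on low counts (-0.28), by limma on log2(TPM + 1) (-0.44) and log2(TPM + 0.1) (-0.87), and by edgeR on the 6 libraries taken as separate (-0.63, and -0.55 with a replicate block).

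Of 9 tested LXR target genes, 5 were higher and 1 lower at an unadjusted p under 0.05, with 0 called. Over all tested genes 3.53% were higher and 4.08% lower. This list, like the others, was chosen with earlier results of these data known. Srebf1, the lipogenic regulator, gave a log2 fold change of 2.01 (SE 0.39), Scd1, a fatty acid desaturase, of 2.87 (SE 0.53), and Abca1, a cholesterol exporter, of 1.36 (SE 0.35). The lower target was Nr1h3, which encodes LXR alpha, at -1.46 (SE 0.59). DESeq2 on the 6 libraries, where it called 3.98% of all genes, called 4 LXR targets, 3 gamma-delta T cell genes and 1 neural crest gene. It also called 7 of 7 adipocyte, 8 of 8 B cell, 2 of 8 T cell and 2 of 10 salivary gland genes. Every adipocyte, B cell and T cell gene had a log2 fold change below 0 by edgeR. Of the endothelial, lymphatic and cartilage genes and further Sox genes, DESeq2 called 0. On the 5 samples, where it called 1.22% of all genes, it called 3 LXR targets, 3 luminal genes and 1 gamma-delta T cell gene. There it also called 6 adipocyte genes, 3 B cell genes, 1 T cell gene and 0 salivary gland genes. Of the basal, neural crest, endothelial, lymphatic, cartilage and partner genes it called 0.

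The DNA before the Sox13, Sox12 and Sox4 genes is shown because their levels were higher with an agonist of a DNA-binding receptor. Sox5 and Sox10 were also higher without overlap, but their DNA is not printed. Promoter windows from RefSeq (GRCm38.p6) were used for 6 of the 10 members, 11 windows in all. Those of Sox9, Sox10, Sox17 and Sox18 were not analysed here. Each line runs 5′ to 3′ on the strand of the gene and ends at its GENCODE start. Capitals mark AGGTCA, the half-site of many nuclear receptors.

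Sox13: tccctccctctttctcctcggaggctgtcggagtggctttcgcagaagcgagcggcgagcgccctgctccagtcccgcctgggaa
Sox12: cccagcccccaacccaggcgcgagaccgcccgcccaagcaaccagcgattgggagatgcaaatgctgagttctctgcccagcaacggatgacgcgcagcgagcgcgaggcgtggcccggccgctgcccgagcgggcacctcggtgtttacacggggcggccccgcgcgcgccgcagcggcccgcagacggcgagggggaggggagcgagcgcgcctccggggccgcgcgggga
Sox4: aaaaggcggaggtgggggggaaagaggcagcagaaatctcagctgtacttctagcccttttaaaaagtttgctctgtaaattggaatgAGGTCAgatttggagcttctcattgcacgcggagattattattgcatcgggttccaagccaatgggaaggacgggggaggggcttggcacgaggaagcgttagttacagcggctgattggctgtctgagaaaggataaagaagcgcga

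The lines cover chr1:133424378-133424462, chr2:152398064-152398296 and chr13:28953714-28953949, all on the minus strand. Windows of 250 bases before each RefSeq start were searched on both strands for AGGTCA, for its direct repeat with 4 free bases between the copies (DR4), the arrangement that LXR with its partner RXR is known to bind, and for ACAATG or ACAAAG, to which Sox proteins bind. AGGTCA, which every match to the repeat also holds, was in the Sox4 window, 162 bases before the RefSeq start, and in 2 of the Sox6 windows. That start of Sox4 lies beyond the end of the printed line, which holds 236 of the 250 bases. The Sox5 window held no AGGTCA. Of 32851 mouse windows, 14.0% held AGGTCA. The repeat was in no member's window and in 0.0152% of all windows. The Sox letters were found in the Sox5 window and in windows of Sox6, and in 25.2% of all windows. None of these letters was in the Sox13, Sox12 or Sox11 window. Only exact letters were searched, so this says nothing of variant sites within the windows or of sites elsewhere in or around these genes. The Sox13 and Sox12 windows were rich in G and C, at 72.4% and 74.4%, against a median of 52.4% over all windows.

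Genes next to the members did not share a direction. Among the 10 nearest tested genes of Sox18, both DMHCA samples were above the controls for 4 and below for 1. These counts were 3 and 1 for Sox12, 3 and 0 for Sox10, 2 and 5 for Sox6 and 2 and 2 for Sox9. They were 1 and 2 for Sox4, 0 and 2 for Sox11, 1 and 0 for Sox5, and 1 and 0 of 6 genes for Sox17. Of the Sox18 neighbours, 7 were highest in DMHCA 1 and 3. The nearest tested neighbour of Sox13, Etnk2, 1.97 kb away, had 157, 99.6 and 62.8 normalized counts in controls and 215 and 258 with DMHCA (log2 fold change 1.15, SE 0.54, unadjusted p 0.075 by edgeR). On the other side Snrpe, 179 kb away, gave -0.32 (SE 0.35). Of the 10 nearest tested genes of Sox13, 5 on each side, 6 had a log2 fold change above 0, among 48.0% of all tested genes. Both DMHCA samples were above the controls for 3 of these 10 and below them for 2, against 13.8% and 12.2% of all tested genes. The 2 lower genes were Lax1 (-4.70, SE 1.70), a lymphocyte adaptor that was highest in control 3, and Zc3h11a (ENSMUSG00000102976, -0.99, SE 0.25). An overlapping annotation with the symbol Zc3h11a (ENSMUSG00000116275) gave 0.50 (SE 0.29), so the counts of that locus are uncertain.

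The nearest neighbours of Sox12 were Zcchc3, 13.9 kb away, at 0.85 (SE 0.45), and Gm14165, 39.0 kb away, at -1.06 (SE 0.71). Next to Sox10, Gm10863, 0.801 kb away, gave 1201, 726 and 807 normalized counts in controls and 2029 and 1522 with DMHCA (0.96, SE 0.33, unadjusted p 0.0246 by edgeR). Gm10863 and Sox10 thus had their groups apart in the same direction, while Polr2f, 3.13 kb away on the other side, gave -0.09 (SE 0.32). BC006965, 0.248 kb from Sox9, gave 11126, 5665 and 5451 normalized counts in controls and 7215 and 6616 with DMHCA (-0.10, SE 0.38). It was highest in control 1, as Sox9 was. Beside Sox6, 1110004F10Rik, 0.601 kb away, gave 0.57 (SE 0.27), opposite in sign to Sox6.

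Of the remaining nearest neighbours, the groups were apart for Insc, 620 kb from Sox6 (-0.70, SE 0.61), for 2610035D17Rik, 256 kb from Sox9 (-2.02, SE 0.55, unadjusted p 0.00906 by edgeR), and for Prpf6, 14.2 kb from Sox18 (0.43, SE 0.27). They overlapped for Gm34639 and Cdkal1 beside Sox4, Gm44068 within Sox5 and Bcat1 beside it, Gm9866 and Dcdc2c beside Sox11, Gm38148 and Mrpl15 beside Sox17, and Tcea2 beside Sox18, with log2 fold changes from -1.15 (Gm34639) to 0.16 (Tcea2).

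The genes whose pattern was most like that of Sox13 were found by the root mean square difference of mean-centred log2 normalized counts over the 5 samples, among 11779 genes with a mean of at least 300 normalized counts. They were Ddias at 0.102, Mpped2 at 0.158, Pdzd2 at 0.161, Wee1 at 0.166 and Enah at 0.176. Wee1, a kinase that holds back entry into mitosis, had 1848, 1104 and 1158 normalized counts in controls and 3394 and 3794 with DMHCA. Ddias, an inhibitor of apoptosis after DNA damage, had 375, 210 and 207 in controls and 731 and 776 with DMHCA. Among the members, Sox10 at 0.486, Sox5 at 0.489 and Sox4 at 0.501 were nearest to Sox13, and Sox6 at 1.36 was the farthest of the 7 members at that level, which Sox11 and Sox17 did not reach.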

How the data were processed

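RNA from 3 control and 3 DMHCA libraries was analysed. The expected counts per gene that the authors deposited were estimated by RSEM 1.3.1 after cutadapt 2.9 trimming and Bowtie2 2.4.1 alignment on Ensembl 99 (mm10), by the study's methods and the submitters' processing notes. The strand setting is not given in the sources used here, and antisense overlap of Sox5 (Sox5os1, at most 3.33 counts) and Sox17 was small. The deposited FPKM values were not used, and the deposited TPM values served as levels.

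Expected counts were rounded and DMHCA libraries 1 and 3 summed. Genes were filtered (filterByExpr, minimum count 10), scaled by TMM and fitted with edgeR 4.0.16 (R 4.3.3) by quasi-likelihood over 5 samples, with Benjamini-Hochberg adjustment at 0.05. Normalized counts are on the scale of 1 average library. Steps were tested on simulated data. DESeq2 1.42.0 and limma 3.58.1 gave alternatives, with 17 in all. P-values measure only the spread between these samples.

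Members and gene lists were chosen with earlier results of these data known. Named were all members, all other Sox genes, the 3 genes of highest mean TPM in a list (or fewer, for room), the nearest tested neighbour on each side and the 5 genes most like Sox13. Further list genes, and Lax1 and Zc3h11a, were named after their values were seen. Box sequences came from GENCODE transcripts, since no protein table was used here. Coordinates are those of GENCODE M21 (GRCm38).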

Additional observations from a re-analysis of the deposited data

How the results depend on the processing

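The count of genes called was 0 with edgeR on the 5 samples. It was 16 with no filter on low counts, 244 with DESeq2 on the 5 samples and 846 with DESeq2 on the 6 libraries. The count of called Sox members was 2 in the last and 0 in every other setting run, and leaving out any library gave 0 to 0 called genes and 0 to 0 called members. Without DMHCA 2 that group is 1 sample, assumed to vary like the controls, and without DMHCA 1 or 3 no sample is lost, so these counts of 0 say nothing about stability. The Sox13, Sox12, Sox4, Sox5, Sox10, Sox9, Sox18 and Sox6 differences kept their sign in all 17 alternatives. Sox17 was at 0.27 and 0.18 by limma on log2(TPM + 0.1) and log2(TPM + 1), and between -0.33 and 0.07 with a library left out. Sox11 ranged from -0.89 to 0.36 with a library left out. The median over all genes moved from -0.03 to 0.16 and 0.11 by limma on the same TPM scales and to -0.13 by upper-quartile factors. Medians of lists near 0 changed sign. By limma, with pseudocounts of 0.1 and 1, they were 0.23 and 0.23 for cartilage targets, 0.10 and 0.10 for luminal genes, 0.13 and 0.12 for fibroblast genes, and with 0.1 only 0 for the other Sox genes and -0.04 for lymphatic genes. Lymphatic genes were at -0.01 under the stricter filter and -0.06 by upper-quartile factors. With a library left out, medians ran from -1.85 to 0.91 for the other Sox genes, -0.09 to 0.26 for partners, -0.45 to 0.23 for cartilage targets, -0.63 to 0.11 for neural crest genes, -0.29 to 0.77 for lymphatic genes, -0.37 to 0.12 for fibroblast genes and -0.83 to 0.09 for muscle genes.

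Replicate numbers are shared by the groups, but the correlation of deviations was over 0.1 for only 2 of the 3 same-numbered pairs (-0.0585, 0.342 and 0.359). Differently numbered pairs ranged from -0.39 to 0.346, and the numbers were not taken as pairs. With the replicate block in edgeR on the 6 libraries, 0 genes and 0 members were called, and Sox13 was at 1.60 and Sox12 at 2.10 on the log2 scale. The cause of these changes was not tested.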
